A study of Mus musculus with 23 samples.

Results

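Aminoacyl-tRNA synthetases are the enzymes that join each amino acid to its transfer RNA (tRNA). The 36 genes described here were chosen by name, as 20 that encode enzymes of the cytosol and 16 that encode enzymes of the mitochondrion. All 36 were found among the 24475 genes of the expression table. All 36 also passed the filter on low values (at least 0.5 RPKM in at least 5 libraries), which 11939 genes passed. RPKM is a read number scaled to the length of the gene and the size of the library. The gene listed as Mars in the table was matched by its gene ID and is called Mars1.

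The RNA came from whole liver of male C57BL/6J mice in 4 groups. The first group was fed chow for 4 months and given the antibody REGN496 at 10 mg/kg for 3 weeks (5 libraries, numbered 1 to 5). The second was fed chow and given REGN1193, which blocks the glucagon receptor (GCGR), at the same dose and for the same time (6 libraries, 6 to 11). The other two were kept for the same 4 months on a high-fat diet (HFD) and received REGN496 (6 libraries, 12 to 17) or REGN1193 (6 libraries, 18 to 23). REGN496 was taken as the isotype control by elimination, because the design text gives that control no code.

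Synthetases fall into class I and class II by the fold of their catalytic domain. In the mouse cytosol, 8 of the genes in this set encode enzymes that assemble with scaffold proteins into the multisynthetase complex, and Eprs carries 2 activities, for glutamate and proline, in 1 chain. Mitochondria have an enzyme set of their own, encoded in the nucleus. Many cytosolic synthetase genes are known targets of ATF4, the transcription factor whose translation rises when uncharged tRNA or stress leads to phosphorylation of eIF2. Glucagon drives amino acid breakdown in liver, and amino acids in blood are known to rise when its receptor is blocked.

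ATF4 binds with C/EBP partners to an element with the core TGATGNAA. This core was searched on both strands in RefSeq promoter windows (GRCm38.p6, 250 bases before to 50 after a transcript start), and 27 of the 36 genes had a window. Cars, Lars, Rars, Vars, Wars, Hars, Nars, Hars2 and Pars2 had none in the table. The core was found in 5 of the 27 windows (18.5%), against 4.51% of 27025 genes. All 5 were cytosolic (5 of 13, and 0 of 14 mitochondrial). They were also 5 of the 8 genes with a window that were listed here as known ATF4 targets (62.5%). The stretches that hold the core are shown because these 5 are the genes of the set with a match to the ATF4 element, with the core in capitals, read 5′ to 3′ along the gene's strand.
Aars: cttgagcaTTGCATCAgccgagcc
Gars: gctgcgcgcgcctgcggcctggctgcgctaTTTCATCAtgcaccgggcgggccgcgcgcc
Iars: tgtcagtaTTGCATCAcctccaga
Tars: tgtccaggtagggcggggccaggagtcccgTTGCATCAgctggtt
Yars: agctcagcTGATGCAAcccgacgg
The Aars stretch is chr8:111033722-111033745, 1 of 2 cores in that window. The Gars stretch is chr6:55037941-55038000 and the Tars stretch is chr15:11399659-11399703, on the minus strand. Those of Iars (chr13:49682129-49682152) and Yars (chr4:129189898-129189921) have the core just after the transcript start used by the table. In Yars the core reads on the gene's own strand and in the others on the opposite strand. A match is a description of these letters and not evidence of binding.

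The 23 libraries had relative depths of 0.861 to 1.14, estimated from the steps of 610 low genes, with a typical library near 16200000 reads. Their summed RPKM ran from 594026 to 692295, no columns were identical, and the highest correlation between libraries was 0.9938. Libraries 20 and 19, both of the GCGR antibody on HFD, stood farthest from their own group (mean correlations of 0.9789 and 0.9800). The summed RPKM of 7 hepatocyte markers was 46783 to 64951 per library, against 1.90 to 6.80 for T and NK cell markers. In these bulk samples, fewer cells of a type and less RNA per cell cannot be told apart. The labels do not state whether libraries stand for separate mice, so p-values reflect the spread among these libraries, which may be technical.

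With Lars2 (below) left out, the cytosolic enzymes were the more abundant set. Per length, the alanine enzyme Aars had the highest level of the 20, at a mean of 64.5 ± 5.04 RPKM (SD, n = 23). It was followed by the threonine enzyme Tars (43.9 ± 8.92), the asparagine enzyme Nars (33.8 ± 2.44) and the glutamate and proline enzyme Eprs (27.3 ± 1.82). The valine enzyme Vars had the lowest, at 7.07 ± 0.875 RPKM. Aars stood above Tars in 23 of 23 libraries and Tars above Nars in 21. Lower in the order, neighbours changed places from library to library: Farsb was above Rars in 13 of 23, Cars above Iars in 12, and Lars above Farsa in 10.

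Among the mitochondrial enzymes, leaving out Lars2 (below), the isoleucine enzyme Iars2 had the highest level (17.7 ± 1.31 RPKM, n = 23). The phenylalanine enzyme Fars2 (12 ± 0.978) and the threonine enzyme Tars2 (9.27 ± 0.656) came next, and the order of these 3 was the same in all 23 libraries. The methionine enzyme Mars2 had the lowest, at 0.765 ± 0.130 RPKM. Aars2, Vars2, Rars2, Sars2 and Nars2 lay within 4.13 to 5.04 RPKM, and each neighbouring pair of them kept its order in 12 to 15 of the 23 libraries.

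A cytosolic and a mitochondrial gene of the same letter were compared for 14 amino acids, with Eprs set against Ears2. Farsa and Farsb against Fars2, and Eprs against Pars2, were not among these pairs. The mean level of Fars2 lay above that of Farsa (7.63 RPKM) and below that of Farsb (12.9). The mean of Eprs (27.3) was above that of Pars2 (1.03). The cytosolic level was the higher in 23 of 23 libraries for 12 of the 14 pairs. The mean ratio ran from 1.36 for Yars over Yars2 to 26.7 for Mars1 over Mars2. The other 2 pairs went the other way in every library, with Iars at 0.540 of Iars2 on average and Lars at 0.00658 of Lars2, whose row is uncertain (below). Of the 33-base words in Iars2 transcripts, 22.3% also occur in Rab3gap2 on the opposite strand. Whether the counting used strand is not given in the sources used here, so the Iars2 level is uncertain. Fars2 shares 8.09% of its words with Nrn1 on the opposite strand, and Aars 13.8% with Exosc6 on the same strand.

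**Figure D1:**
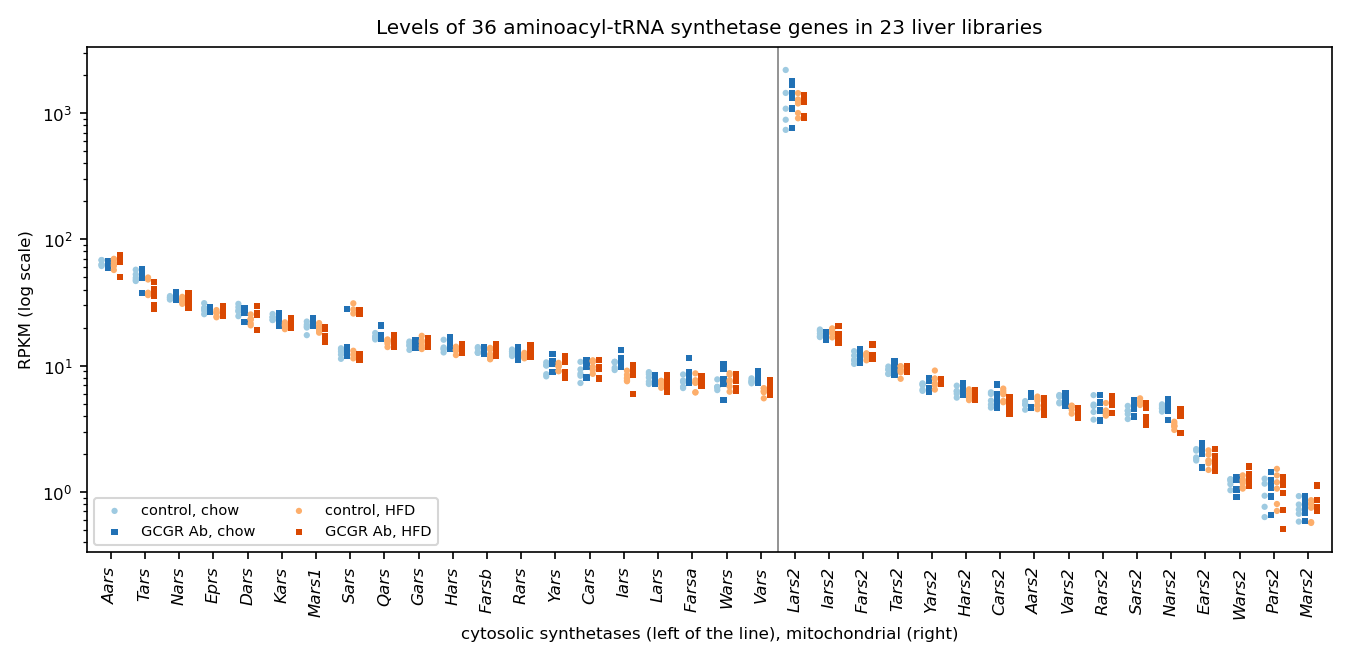
RPKM (log scale) of the 36 synthetase genes, 1 point per library, coloured by group and ordered by mean level, with the 20 cytosolic genes left of the line and the 16 mitochondrial genes right of it. Lars2 lies far above all others, Sars splits into separate levels, and the group columns of most other genes overlap.

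The summed level of the 20 cytosolic genes was 392 ± 5.02 RPKM (n = 5) on chow with control antibody and 401 ± 22.5 (n = 6) with GCGR antibody. On HFD it was 372 ± 16.8 and 372 ± 33.1 (n = 6 each). The 15 mitochondrial genes without Lars2 summed to 85.8 ± 2.44, 88.0 ± 2.87, 86.2 ± 2.70 and 84.7 ± 3.59 in the same order. The ranges of the 4 groups overlapped for both sums. Within a group, the synthetase genes varied little between libraries: the median within-group SD was 0.11 on the log2 scale, against 0.15 over the 11939 genes tested, and 28 of 36 (77.8%) lay at or under 0.15, against 53.0% of all genes.

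Lars2, the mitochondrial leucine enzyme, was listed at a mean of 1238 ± 341 RPKM (n = 23), the highest of the set. Its 23 values ran from 735 to 2191 RPKM, highest in library 3 and lowest in library 1. The row of the 45S ribosomal RNA precursor, Rn45s, ran from 2757 to 8503 RPKM and was also highest in library 3 and lowest in library 1. The ratio of Lars2 to Rn45s stayed between 0.236 and 0.276, a 1.17-fold range, while Lars2 itself ranged 2.98-fold. The row Mir6236 kept a similar tie, at ratios of 0.357 to 0.408. The ribosomal RNA row Rnr2 did not follow: it was highest in library 7 (2071 RPKM, with Lars2 at 756) and stood at 1392 in library 3. The Lars2 row thus moved with Rn45s and Mir6236, and whether its reads come from the synthetase transcript was not tested. Its level is given as uncertain and is left out of the sums.

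Sars, the serine enzyme, did not spread evenly. In 16 libraries it lay between 11 and 14.1 RPKM, and in the other 7 between 25.5 and 31.1. The 7 high libraries were 8, 12, 14, 17, 18, 19 and 20, which are 1 of GCGR antibody on chow, 3 of control antibody on HFD and 3 of GCGR antibody on HFD. The empty stretch took 56.7% of its range, and the next widest among the 36 genes was 18.6%, in Tars. All 5 libraries of control antibody on chow were in the lower level. Sars was called in none of the comparisons. On HFD with control antibody its mean of 20.2 ± 8.94 RPKM (n = 6) falls in the empty stretch, where no library lies, while on chow the mean was 12.7 ± 0.959 (n = 5).

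**Figure D2:**
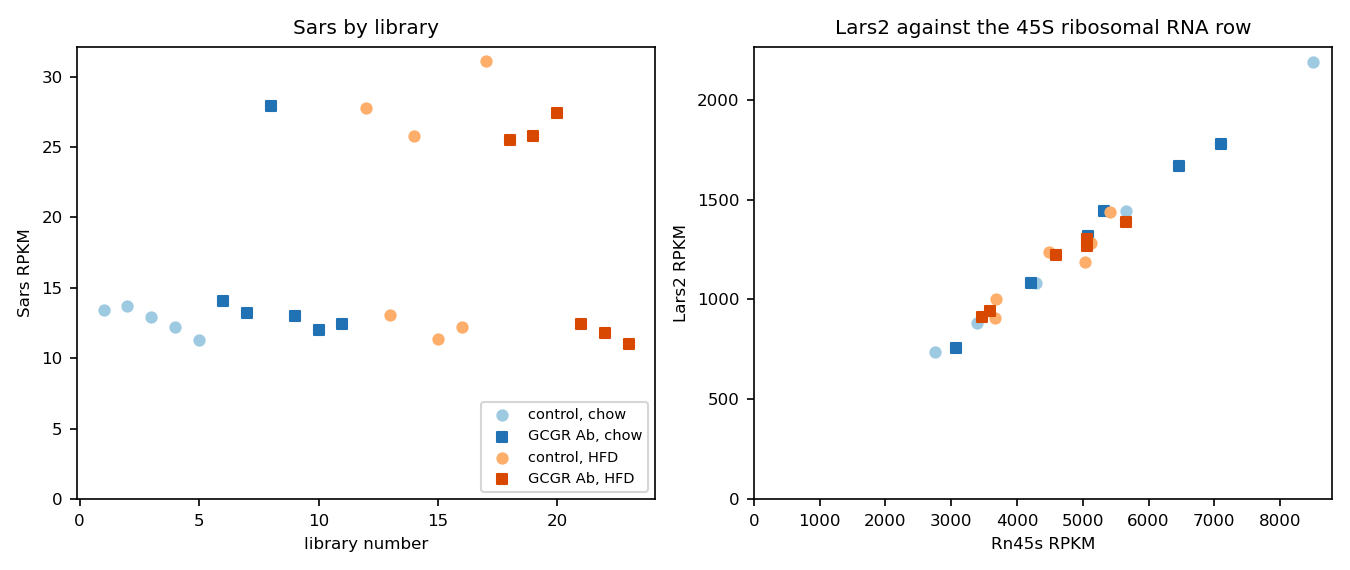
Left, Sars RPKM by library number; right, Lars2 RPKM against Rn45s RPKM; 1 point per library, coloured by group. Sars lies at 11 to 14.1 RPKM in 16 libraries and at 25.5 to 31.1 in 7, and Lars2 rises with Rn45s along a line through all 4 groups.

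Blocking the glucagon receptor on chow changed no synthetase gene by the test. Of the 36 genes 0 were called, 0 had an unadjusted p under 0.05, and 0 had groups that did not overlap (limma, Benjamini-Hochberg adjustment over 11939 genes, call at an adjusted p under 0.05). Over all genes 0.946% were called (0.394% higher and 0.553% lower), and 2.50% had groups that did not overlap. An unadjusted limma p under 0.05 was reached by 1288 of the 11939. The median log2 fold change of the 36 was 0.05, against 0.03 over all genes, with a range of -0.07 to 0.20. The 95% interval of the difference lay within ±0.5 on the log2 scale for 34 of 36 genes, all but Lars2 and Sars, and within ±0.3 for 28. Differences are in log2(RPKM + 1), a scale that shrinks those of low genes.

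The 3 smallest adjusted p values on chow belonged to Yars, Cars and Hars2. The tyrosine enzyme Yars lay at 8.21, 8.54, 9.98, 10.1 and 10.6 RPKM with control antibody, and with GCGR antibody its lowest, median and highest values were 8.93, 10.7 and 12.3. The difference was 0.15 ± 0.09 (log2, SE; limma adjusted p = 0.561), and the groups overlapped. The cysteine enzyme Cars lay at 7.27, 8.30, 8.62, 9.32 and 10.7 RPKM with control antibody, and at 8.03, 9.96 and 11 (lowest, median, highest) with GCGR antibody, a difference of 0.15 ± 0.09 (adjusted p = 0.597). The mitochondrial histidine enzyme Hars2 lay at 5.57, 5.98, 6.22, 6.30 and 6.93 RPKM, and at 5.87, 6.78 and 7.32 with GCGR antibody, a difference of 0.10 ± 0.06 (adjusted p = 0.605). The antibody groups overlapped in all 3 genes.

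On HFD the antibody again moved no synthetase gene past the threshold, with 0 of 36 called, against 7.45% of all genes (5.33% higher and 2.12% lower, or 636 and 253 genes, a split that median-ratio scaling turned to 377 and 503). None of the 36 had groups that did not overlap, against 2.85% of all genes. The median log2 fold change was 0.02, against 0.05 over all genes, with a range of -0.24 to 0.21. The interval lay within ±0.5 for 35 of 36 genes and within ±0.3 for 27. An unadjusted limma p under 0.05 was reached by 4 of 36 genes, against 2869 of the 11939 genes tested. The 4 were all mitochondrial: Sars2, Nars2, Cars2 and Rars2 (the last was named after its values were seen).

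The mitochondrial serine enzyme Sars2 had the smallest adjusted p. Its lowest, median and highest values were 4.87, 5.08 and 5.50 RPKM with control antibody and 3.37, 4.27 and 5.07 with GCGR antibody. The difference was -0.24 ± 0.08 (log2, SE), with a limma adjusted p of 0.0573, and library 18, at 5.07, lay inside the control range while the other 5 lay below it. It passed the threshold when values were rescaled by median ratios (-0.29, adjusted p = 0.0184, with Iars2 then also called lower) or by quantiles (-0.30, adjusted p = 0.0172), and without library 18 (-0.28, adjusted p = 0.0272).

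The mitochondrial asparagine enzyme Nars2 lay at 3.09, 3.32 and 3.59 RPKM (lowest, median, highest) with control antibody and at 2.92, 4.27 and 4.53 with GCGR antibody. The difference was 0.21 ± 0.07 (limma adjusted p = 0.0876). Library 19, at 2.92, lay below the control range, and the other 5 libraries of the antibody group lay above it. Without library 19 the difference was 0.28 (adjusted p = 0.00407), and Nars2 and Dars were then called higher. Without libraries 19 and 20, an alternative chosen after seeing the data, Nars2 (0.30, adjusted p = 0.00430) and Eprs were called higher. The mitochondrial cysteine enzyme Cars2 lay at 5.12, 6.00 and 6.57 RPKM with control antibody and at 4.16, 5.06 and 5.65 with GCGR antibody, a difference of -0.20 ± 0.09 (adjusted p = 0.153) with overlapping groups.

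**Figure D3:**
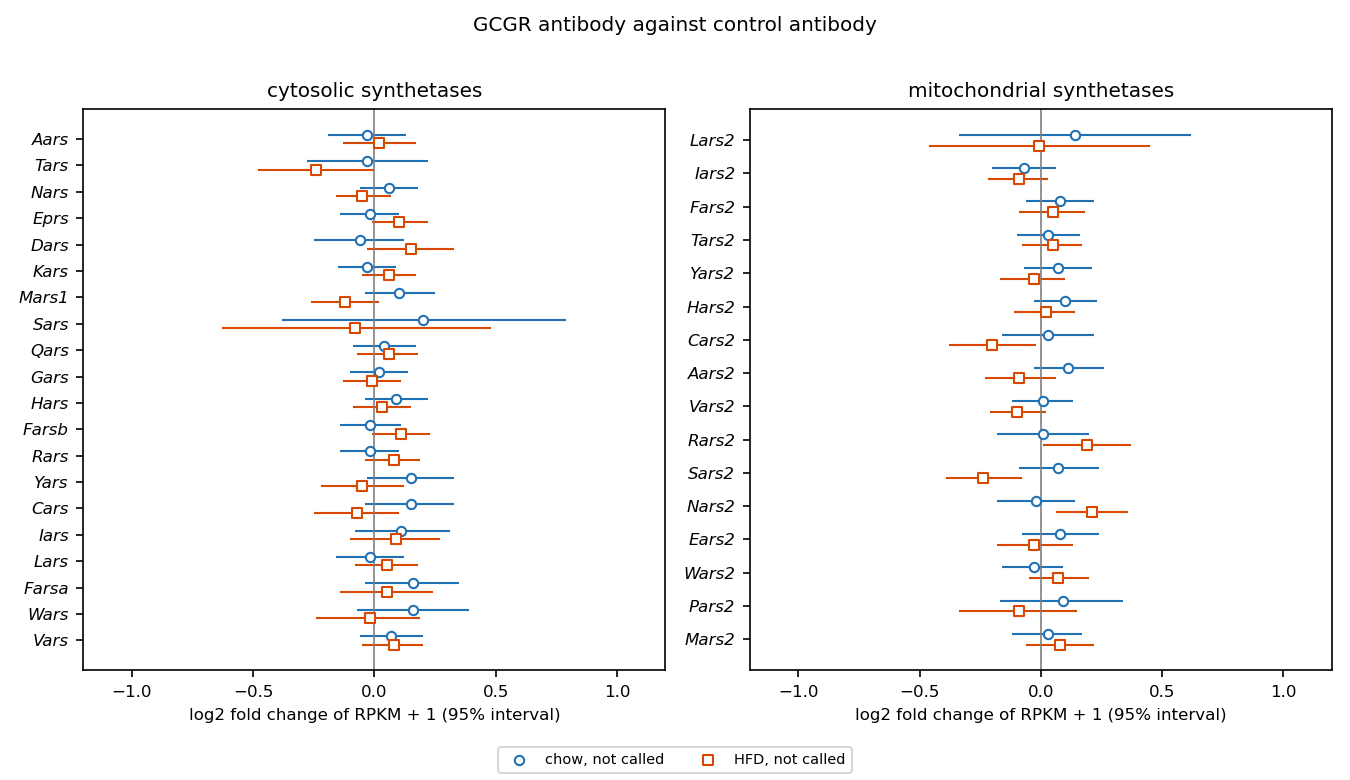
Log2 fold change of RPKM + 1 (GCGR antibody minus control antibody) with its 95% interval for each synthetase gene, on chow (circles) and on HFD (squares), cytosolic genes left and mitochondrial genes right. All symbols are open because 0 of 36 genes were called on either diet, and the long bars belong to Lars2 and Sars.

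The difference between the antibody effects on HFD and on chow was called for 0 of 36 genes, against 0.201% of all genes (0.126% higher and 0.0754% lower). It was -0.31 ± 0.11 for Sars2 (log2, SE; limma adjusted p = 0.324), -0.22 ± 0.10 for the methionine enzyme Mars1 (adjusted p = 0.452) and 0.23 ± 0.11 for Nars2 (adjusted p = 0.485), the 3 with the smallest adjusted p. These 3 of 36 had an unadjusted p under 0.05, against 1177 of the 11939 genes tested. The 95% interval lay within ±0.5 for 31 of 36 genes.

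Diet gave calls among the synthetase genes. Lower calls came to 6 of 36 (16.7%) under each antibody, near the shares of all genes (18.3% under control and 16.6% under GCGR antibody). Under control antibody, 6 synthetase genes were lower on HFD than on chow (Nars2, Vars, Vars2, Kars, Iars and Dars) and 1 was higher (Sars2). Under GCGR antibody, 6 were lower (Vars2, Tars, Vars, Mars1, Iars and Nars) and 0 higher. The calls took 19.4% of the 36 genes under control antibody, against 29.9% of all genes (11.6% higher and 18.3% lower). Median-ratio scaling moved the split over all genes from 1390 higher and 2183 lower to 1805 and 1818. Under GCGR antibody they took 16.7%, against 29.8% (13.2% higher and 16.6% lower, or 1579 and 1983 genes, which that scaling turned to 1853 and 1765). The share of the set that was called was thus below that of all genes in both comparisons. An unadjusted limma p under 0.05 was reached by 10 of the 36 in each. Over the 11939 genes tested, 4908 reached it under control antibody and 4926 under GCGR antibody. Without library 20, 10 of the 36 were lower under GCGR antibody, against 2282 of 11939. The others were Aars2, Hars2, Yars and Ears2. The median log2 fold change was -0.04 and -0.09, against -0.03 and -0.02 over all genes.

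Iars, Vars and Vars2 were lower in both diet comparisons, which share no library. They are 3 of the 6 genes lower under control antibody and 3 of the 6 lower under GCGR antibody. How many of all genes were lower in both is not given here. The comparisons are also not fully separate, because the fit estimated the spread over all 23 libraries. In all, 10 of the 36 genes were called in at least 1 diet comparison and 26 in neither. Among the 26 were Aars, the most abundant cytosolic gene, with diet differences of -0.01 ± 0.08 and 0.04 ± 0.07 (log2, SE), and the glycine enzyme Gars, with diet differences of 0.04 ± 0.06 and 0.01 ± 0.06.

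**Figure D4:**
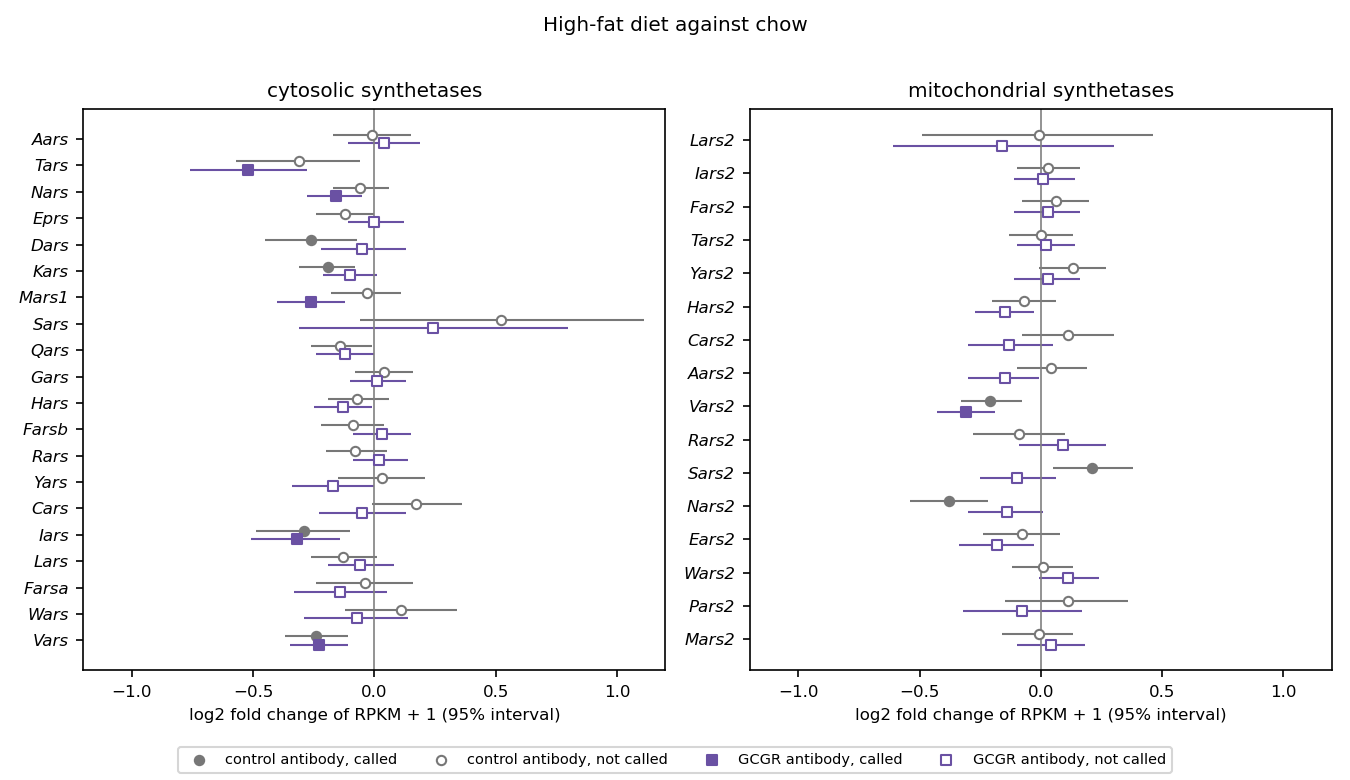
Log2 fold change of RPKM + 1 (HFD minus chow) with its 95% interval for each synthetase gene, under control antibody (grey circles) and GCGR antibody (purple squares); filled symbols are called. Filled symbols lie left of 0 except that of Sars2, and Iars, Vars and Vars2 are filled in both comparisons.

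The valine enzymes of both compartments were among the 3 genes lower in both. Cytosolic Vars lay at 7.23, 7.42, 7.43, 7.64 and 7.92 RPKM on chow with control antibody and at 5.50, 6.27 and 6.61 (lowest, median, highest) on HFD. With GCGR antibody it lay at 7.26, 7.78 and 9.02 on chow and at 5.81, 6.48 and 7.67 on HFD. The differences were -0.24 ± 0.06 (log2, SE; limma adjusted p = 0.00669) and -0.23 ± 0.06 (adjusted p = 0.00604). The groups did not overlap under control antibody and overlapped under GCGR antibody.

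Mitochondrial Vars2 lay at 5.02, 5.11, 5.67, 5.77 and 5.84 RPKM on chow with control antibody and at 4.16, 4.73 and 4.82 on HFD. With GCGR antibody it lay at 4.77, 5.47 and 6.09 on chow and at 3.85, 4.29 and 4.58 on HFD. The differences were -0.21 ± 0.06 (limma adjusted p = 0.0119) and -0.31 ± 0.06 (adjusted p = 3.34e-04). Neither pair of groups overlapped. Under quantile normalization the call under control antibody was lost (-0.13, adjusted p = 0.102). Of the 33-base words in Vars2 transcripts, 7.19% also occur in Gm20483 on the opposite strand.

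The cytosolic isoleucine enzyme Iars, a member of the multisynthetase complex, lay at 9.21, 9.60, 10.6, 10.7 and 10.7 RPKM on chow with control antibody and at 7.51, 7.94 and 9.11 on HFD. With GCGR antibody it lay at 9.76, 10.8 and 13.3 on chow and at 5.96, 9.07 and 10.0 on HFD. The differences were -0.29 ± 0.09 (limma adjusted p = 0.0213) and -0.32 ± 0.09 (adjusted p = 0.00980). All HFD libraries with control antibody lay below all chow libraries, and with GCGR antibody the groups overlapped. Without library 3 the call under control antibody was lost (adjusted p = 0.0514). Of the 33-base words in Iars transcripts, 13.6% also occur in the predicted gene Gm4849, so reads of the pair could be shared.

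The other 4 genes called under control antibody only were Nars2, Kars, Dars and Sars2. Nars2 had the smallest adjusted p of the comparison, at 4.32, 4.58, 4.59, 4.79 and 4.93 RPKM on chow and at 3.09, 3.32 and 3.59 on HFD. The groups did not overlap, and the difference was -0.38 ± 0.08 (log2, SE; limma adjusted p = 0.00122). With GCGR antibody it was -0.14 ± 0.07 (adjusted p = 0.142). The antibody effect on HFD and the diet effect under control antibody share the 6 libraries of control antibody on HFD, in which Nars2 was low.

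The lysine enzyme Kars, which serves cytosol and mitochondria from 1 gene, lay at 22.9, 23, 24.1, 24.2 and 25.6 RPKM on chow with control antibody and at 19.4, 20.9 and 22 on HFD. The groups did not overlap, with a difference of -0.19 ± 0.06 (limma adjusted p = 0.0137). The aspartate enzyme Dars lay at 24.6, 26.8, 27.3, 29.0 and 30.8 RPKM on chow and at 20.8, 23.2 and 25.4 on HFD, a difference of -0.26 ± 0.09 (adjusted p = 0.0331) with overlap of the lowest chow and highest HFD values. Kars and Dars both belong to the multisynthetase complex. Dars lost its call under 7 of the 31 alternatives tried (adjusted p up to 0.0947): without library 1, 4, 5, 12 or 14, without the filter and under median-ratio scaling.

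Sars2 was the single gene that was higher on HFD. It lay at 3.77, 4.13, 4.38, 4.39 and 4.79 RPKM on chow with control antibody and at 4.87, 5.08 and 5.50 on HFD. The difference was 0.21 ± 0.08 (log2, SE; limma adjusted p = 0.0473), with groups that did not overlap. Its call was lost under 12 of 31 alternatives, 11 of them the omission of 1 library (1, 2, 3, 5, 8, 9, 12, 14, 15, 16 or 17), with an adjusted p of up to 0.121 without library 2. With GCGR antibody the diet difference was -0.10 ± 0.08 (adjusted p = 0.349).

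The 3 genes called under GCGR antibody only were Tars, Mars1 and Nars, all cytosolic. Tars had the largest difference of any called synthetase gene. It lay at 37.6, 51.1 and 58.3 RPKM (lowest, median, highest) on chow with GCGR antibody and at 28.0, 32.9 and 45.6 on HFD, a difference of -0.52 ± 0.12 (log2, SE; limma adjusted p = 0.00191). Chow library 11, at 37.6, lay inside the HFD range and the other 5 chow libraries lay above it. Under control antibody Tars lay at 46.7, 47.9, 49.6, 52.7 and 57.4 RPKM on chow and at 36.1, 37.6 and 49.8 on HFD, a difference of -0.31 ± 0.12 (adjusted p = 0.0538). It was called lower there too in 8 of the 31 alternatives: under quantile normalization, in a fit of the 2 groups alone, without library 11, 12, 13, 19 or 20, and without both 19 and 20. The difference between these diet effects, which is the same quantity as that between the antibody effects, was -0.21 ± 0.17 (adjusted p = 0.725).

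Mars1, a complex member, lay at 20.5, 21.8 and 23.6 RPKM on chow with GCGR antibody and at 15.3, 18.3 and 20.2 on HFD. The groups did not overlap, and the difference was -0.26 ± 0.07 (limma adjusted p = 0.00632). Nars lay at 33.3, 35.8 and 38.3 RPKM on chow and at 28.5, 31.3 and 37.3 on HFD, a difference of -0.16 ± 0.05 (adjusted p = 0.0281). The Nars groups overlapped over much of their range. Nars lost its call under 7 of 31 alternatives, without library 6, 8, 9, 18, 19 or 23 and in a fit of the 2 groups alone (adjusted p up to 0.0954).

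**Figure D5:**
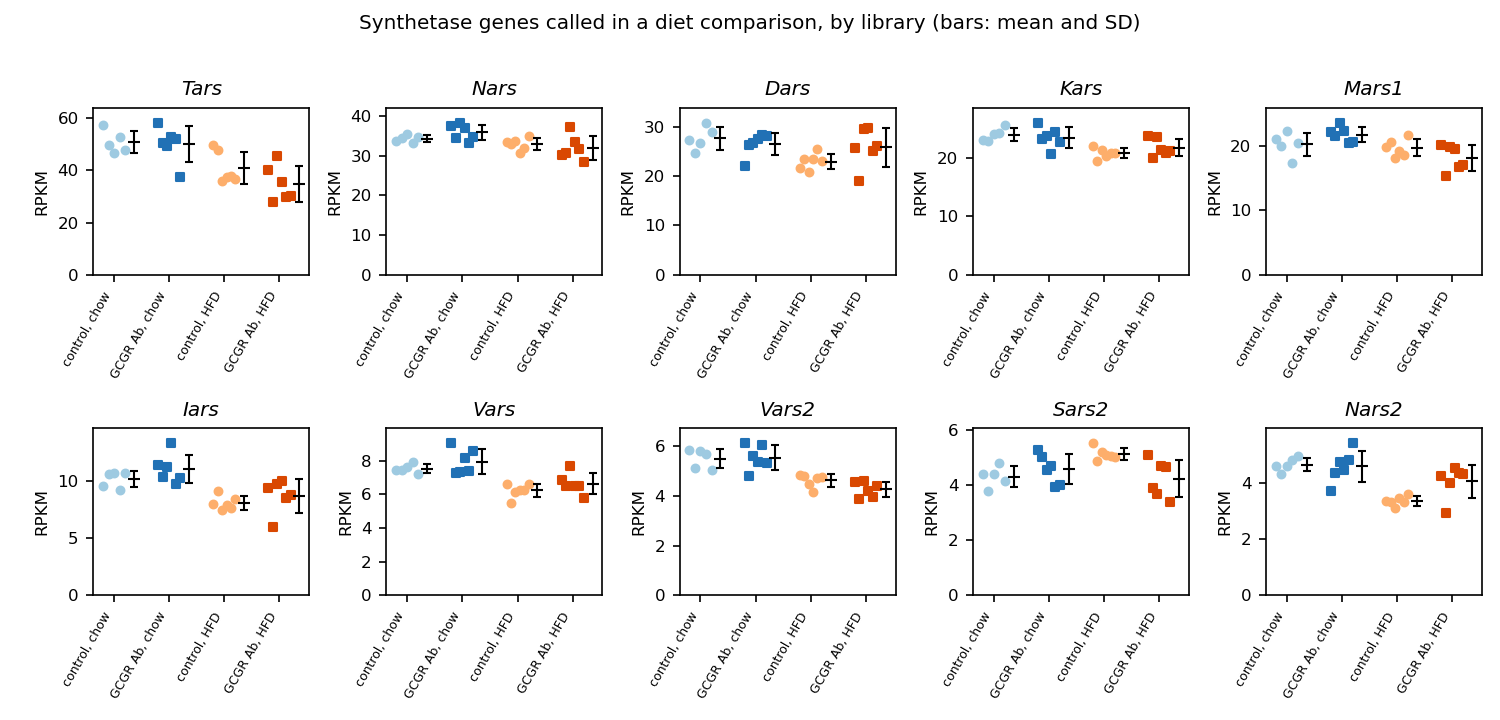
RPKM by library (points) with the mean and SD (bars) in the 4 groups, for the 10 synthetase genes called in a diet comparison, on axes that start at 0. The HFD points of Vars2 lie lower than the chow points under both antibodies. Those of Vars and Iars do so under control antibody and overlap the chow points under GCGR antibody. The HFD points of Sars2 lie higher under control antibody.

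In the multisynthetase complex, all 8 genes had a log2 fold change below 0 in the diet comparison under control antibody (median -0.13), and 3 of the 8 were called lower, Iars, Kars and Dars, against 18.3% of all genes. Eprs (-0.12 ± 0.06, limma adjusted p = 0.113) and the glutamine enzyme Qars (-0.14 ± 0.06, adjusted p = 0.102) were not called (both were named after their values were seen). Under GCGR antibody 6 of 8 were below 0 (median -0.08), and 2 were called lower, Iars and Mars1, against 16.6%. Differences below 0 were not particular to the complex: under control antibody 15 of the 20 cytosolic genes had them. So did all 8 cytosolic genes not listed as ATF4 targets (median -0.11), a set that shares members with the complex. Of the 12 cytosolic genes outside the complex, 7 were below 0 (median -0.02). The median over all genes was -0.03. Groups did not overlap for 6 of the 36 genes under control antibody, against 15.9% of all genes, and for 2 under GCGR antibody, against 10.3%. Of the 3 scaffold genes of the complex, Aimp2 was higher on HFD under control antibody, from 6.13 to 8.06 RPKM (0.35, adjusted p = 0.00209), and no other scaffold call was made in the 5 comparisons.

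Of the 12 cytosolic synthetase genes listed as ATF4 targets, 1 was lower on HFD under control antibody (Iars) and 4 under GCGR antibody (Mars1, Iars, Tars and Nars), against 18.3% and 16.6% of all genes. For the antibody, 0 were called and 0 had an unadjusted p under 0.05 on either diet. Of the 5 with the core TGATGNAA in the promoter window, Iars and Tars were lower on HFD in at least 1 diet comparison, and Aars, Gars and Yars were called in none of the comparisons. Atf4 itself was not called, at group means of 61.2 ± 7.33, 62.8 ± 8.62, 55.2 ± 11.3 and 54.0 ± 4.51 RPKM (control and GCGR antibody on chow, then on HFD). Of 24 other ATF4 targets tested, 6 were higher and 2 lower in each diet comparison (33.3% called, against 29.9% and 29.8% of all genes). Those higher were Ddit3, Vldlr, Atf5, Fgf21, Nupr1 and Gpt2 under control antibody. Under GCGR antibody they were Atf3, Ddit4, Shmt2, Vldlr, Cebpb and Gpt2. Cth and Asns were the lower ones under control antibody, and Asns and Mthfd2 under GCGR antibody. Differences of the 24 ran from -1.30 to 1.99 and from -1.16 to 1.22. The lowest in each was the asparagine synthetase gene Asns (limma adjusted p = 0.00254 and 0.00389), which makes asparagine and charges no tRNA. The antibody lowered 1 of the 24 on chow (Cth, -1.06, adjusted p = 1.41e-04) and 1 on HFD (Atf5, -1.01, adjusted p = 1.69e-04).

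The tryptophan enzyme Wars is known to respond to interferon. In the antibody comparison on HFD, 15 of 19 interferon genes were higher and 0 lower, against 5.33% of all genes higher. Of 4 T and NK cell markers tested, 2 were also higher (Il2rb and Cd3g), with a summed level of 2.98 to 6.80 RPKM against 1.90 to 2.66 with control antibody. Among the other marker lists, Lyve1 and Hspa1b were higher and Alb and Alas2 lower. The part of these markers was not tested. Wars lay at 6.21, 7.54 and 8.70 RPKM with control antibody and at 6.28, 7.61 and 8.55 with GCGR antibody. Its difference was -0.02 ± 0.10 (log2, SE; limma adjusted p = 0.919), with a 95% interval of -0.24 to 0.19. The Wars ranges of the 2 groups nearly coincided. For diet, 12 of the 19 interferon genes were higher under control antibody and 17 under GCGR antibody, with 0 lower. Over all genes, 11.6% and 13.2% were higher. Wars was not called for diet (0.11 and -0.07, limma adjusted p = 0.470 and 0.638).

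The phenylalanine enzyme of the cytosol is built from 2 kinds of subunit, encoded by Farsa and Farsb. Farsb was the higher in RPKM in every library, at 1.21 to 2.07 times Farsa (median 1.72). Neither gene was called in any comparison. Farsb shares 8.04% of its 33-base words with Sgpp2 on the opposite strand.

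Factors of translation, which use charged tRNA, also gave calls for diet. The elongation factor Eef1a1, which delivers charged tRNA to the ribosome, was lower on HFD, from 2149 to 1757 RPKM under control antibody (-0.29, limma adjusted p = 5.77e-04) and from 2196 to 1767 under GCGR antibody (-0.32, adjusted p = 1.27e-04). Eef2, which moves the ribosome along, was lower by -0.34 (adjusted p = 0.00133) and -0.29 (adjusted p = 0.00264). Of 7 cytosolic elongation factors, 2 were lower under control antibody and 4 under GCGR antibody, with 0 higher. Of 26 initiation factors, 4 and 7 were lower and 1 (Eif1) was higher in each. The elongation factors called, all lower, were 28.6% and 57.1% of their list, against 18.3% and 16.6% of all genes lower. The initiation factors called in either direction were 19.2% and 30.8%, against 29.9% and 29.8% of all genes.

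In the mitochondrial branch, Gatb, a subunit of the amidase that makes glutaminyl-tRNA there in place of a glutamine synthetase, was higher on HFD. It rose from 9.88 to 14.3 RPKM under control antibody (0.48, limma adjusted p = 9.24e-06) and from 10.2 to 13.4 under GCGR antibody (0.35, adjusted p = 1.34e-04). It was the single gene called among 4 of mitochondrial tRNA amidation and formylation. Of 10 mitochondrial translation factors tested, 2 were higher and 1 lower under control antibody, and 1 and 1 under GCGR antibody. The initiation factor Mtif2 was the lower one in both (-0.26 and -0.31, adjusted p = 0.00703 and 8.99e-04).

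For the antibody, calls among these related lists were few. Over all genes, 0.946% were called on chow and 7.45% on HFD. On chow, Eefsec, the elongation factor for selenocysteine, was lower (from 10.6 to 8.48 RPKM, -0.30, limma adjusted p = 0.0271), 1 of 4 genes of its list. On HFD, the initiation factor subunit Eif3e was higher (0.24, adjusted p = 0.00299), 1 of 26. The eIF2 kinase gene Eif2ak2, also known as an interferon target, was higher (0.28, adjusted p = 0.0274), 1 of 7. Eif5a was lower (-0.18, adjusted p = 0.0445), 1 of 7 elongation factors. Of 10 genes of tRNA export, editing and recycling, 0 were called for the antibody by limma on either diet, with 0 on chow and 2 on HFD at an unadjusted p under 0.05. For diet, the export receptor Xpo5 was lower under both antibodies (-0.36 and -0.25, adjusted p = 0.00731 and 0.0436).

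Clock genes moved with diet in the same libraries. Of 14 circadian clock genes, 7 were higher and 3 lower on HFD under control antibody, and 8 and 4 under GCGR antibody (71.4% and 85.7% called, against 29.9% and 29.8% of all genes). Arntl, a core activator of the clock, fell from 5.18 to 1.93 RPKM (-1.12, limma adjusted p = 0.0114) and from 4.64 to 1.14 (-1.37, adjusted p = 0.00194). Within groups, the library lowest in Tars was also the lowest in Arntl in both GCGR antibody groups (libraries 11 and 19, at 1.25 and 0.587 RPKM of Arntl). The library highest in Tars was the highest in Arntl on chow with control antibody (library 1, 9.12 RPKM) and on HFD with GCGR antibody (library 20, 2.54 RPKM). In the other groups different libraries held these places. Most of these places were not particular to Tars among the 20 cytosolic genes. Library 11 was the lowest of its group in 9 of them and library 19 in 11. Library 20 was the highest of its group in 10, and library 1 in 2. The labels give no time of sampling. The part of the clock genes in the diet differences of the synthetase genes was not tested.

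Some markers of other cells were called for diet. Over all genes, 29.9% were called under control antibody and 29.8% under GCGR antibody. Under GCGR antibody, 5 of 9 stellate cell and matrix markers were higher on HFD, with a summed level of 80.0 to 184 RPKM against 86.5 to 94.1 on chow. Of 12 macrophage and Kupffer cell markers, 1 was higher and 3 lower (summed 124 to 196 against 177 to 255), and of 8 endothelial markers 1 was higher and 2 lower (38.9 to 66.1 against 42.2 to 61.9). Of 9 immediate early and heat shock genes tested, 3 were lower (56.4 to 138 RPKM against 102 to 204). The share called was 55.6% for the stellate list and 37.5% for the endothelial list. It was 33.3% for the macrophage list and 33.3% for the immediate early list, near that of all genes. The T cell marker Cd3g was higher, and the bile duct marker Sox9, the red cell marker Alas2 and the hepatocyte marker Cps1 were lower. Under control antibody, 0 stellate, 0 macrophage and 0 immediate early genes were called, 1 endothelial and 1 red blood cell marker were higher, and 1 of 4 tested T and NK cell markers was lower. The adipose marker Cfd was higher (3.31, limma adjusted p = 2.36e-04), the single gene of its list that was tested, with the list summed to 4.4 to 74.8 RPKM on HFD against 0.702 to 2.84 on chow. Of 7 hepatocyte markers, Ttr was higher and Cps1 and Hnf4a lower. Of 5 pancreas markers, 3 were at 0 in all libraries, and no gene of the other marker lists was. Their part in the diet differences was not tested.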

How the data were processed

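Per the labels' protocols, the authors made strand-specific mRNA libraries from liver with a KAPA kit and read 33 bases from 1 end on an Illumina HiSeq. The submitters' processing notes name GRCm38 as build and list FastQC and bcl2fastq 2.17. Which aligner, counter and annotation were used, and whether counting used strand, is not given in the sources used here. What the authors deposited is a table of RPKM, 1 column for each of the 23 samples, matched by name. As RPKM are no counts, count models were not fitted. Low values step by single reads, which gave relative depths and a typical library near 16200000 reads, but no counting intervals were computed, so precision is given by the spread between libraries.

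Groups follow the sample titles. Values were tested as log2(RPKM + 1), a pseudocount of 1, with limma 3.58.1 in R 4.3.3, after a filter of at least 0.5 RPKM in at least 5 libraries (11939 genes). The fit had 4 group means, 19 residual degrees of freedom and a mean-variance trend, with two-sided tests and Benjamini-Hochberg adjustment over all genes tested. The script was tested on simulated data with known changes. The 5 contrasts were the antibody effect on each diet, the diet effect under each antibody and the difference of the antibody effects. Fold changes are given ± SE and levels ± SD.

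The members, the gene lists and the tests were chosen with earlier results of these data known. The lists of circadian clock genes and ribosomal RNA rows, and the alternative without libraries 19 and 20, were added after seeing the data. Members named with their values are, in each contrast, the called genes (at most 8) or, with under 3 calls, the 3 with the smallest adjusted p. At most 4 called genes per related list and contrast were named, smallest adjusted p first. The other ATF4 targets were an exception for diet: all called genes were named, with values for the lowest. Promoter windows and gene positions came from RefSeq tables of GRCm38.p6, and words of 33 bases were compared between transcripts of GENCODE M21. Alternatives were a pseudocount of 0.1, no filter, a mean RPKM of at least 1, median-ratio scaling, quantile normalization, no trend, only the 2 groups compared, and each library left out in turn.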

Additional observations from a re-analysis of the deposited data

Results flagged for a closer look

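Within a group of 5 or 6 libraries, a highest or lowest value that lies far from the nearest other was looked for in each of the 36 genes and 4 groups. It was found in 8 of these 144 sets of values. Chance gives about 1 in 20, and the libraries of a group are shared by all genes.

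On chow with GCGR antibody, library 6 held 3 of the 8 values. Qars was at 20.8 RPKM in it, with the nearest library at 17.5, Farsa at 11.5 against 8.82, and Dars, in the low direction, at 22.1 against 26.2. Library 8 of the same group held Sars at 27.9 RPKM against 14.1, the single library of the group at the upper level of that gene.

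On HFD with GCGR antibody, library 19 held 3 more. Aars was at 50.1 RPKM against 66.3 and Nars2 at 2.92 against 3.99, both low, and Fars2 at 14.7 against 12.2, high. Library 19 was also the lowest of its group in 11 of the 20 cytosolic synthetase genes, and library 20 the highest in 10. On chow with control antibody, Wars was at 7.77 RPKM in library 2 against 6.78.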

How the results depend on the processing

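No paired analysis was possible because the replicate numbers run on from 1 to 23 across the groups, so no number is shared between them. In 31 alternatives per contrast (30 for the difference of antibody effects), no value that was called changed its direction. Comparisons over values and counts gave 1243 results rated the same, 28 calls of genes lost, 5 gained and 19 counts or medians that moved. Genes were rated only in contrasts where the naming rule picked them. Calls gained by other members, such as Tars, Dars, Eprs and Iars2 above, are thus not among the 5. For a gene, the same meant the same side of the threshold. Counts and medians of a compartment were also rated the same after small changes. The count called lower for diet under control antibody, 6, was rated so although it ran from 5 to 7. For the antibody on HFD, the count of synthetase genes called lower went from 0 to 2 with median-ratio scaling and 1 with quantile normalization, and the count called higher went from 0 to 2 without libraries 19 and 20. Leaving out 1 library gave 0 to 1 lower (1 without library 18) and 0 to 2 higher (2 without library 19), and the median of the cytosolic genes, 0.04, became -0.02 with median-ratio scaling. For diet under control antibody, the count called higher went from 1 to 0 without the filter, where more genes are tested, and was 0 to 1 with 1 library left out. The count called lower under GCGR antibody was 5 to 10 with 1 library left out, 10 being without library 20. The counts for the antibody on chow stayed at 0 in every alternative run.

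Depth limits the lowest genes most. Mars2, Pars2 and Wars2 lay near 1 RPKM, where the added 1 shrinks fold changes, and the pseudocount of 0.1 changed no call. The 95% interval of Sars reached past 0.5 on the log2 scale in all 5 contrasts, and that of Lars2 in 3 (the antibody on chow, diet under GCGR antibody and the difference of antibody effects). Iars2 (22.3%), Fars2 (8.09%), Farsb (8.04%), Vars2 (7.19%) and Hars (6.60%) share the most words with a gene on the other strand, and Aars shares 13.8% of its words with Exosc6 on the same strand.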

Other observations

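Selenocysteine has no synthetase of its own and is made on a tRNA that the serine enzyme charges. Of 4 genes of selenocysteine charging and reading, Secisbp2, which binds the selenocysteine element of the messenger, was lower on HFD, from 5.32 to 4.36 RPKM under control antibody (-0.24, limma adjusted p = 0.0145) and from 5.41 to 4.61 under GCGR antibody (-0.19, adjusted p = 0.0344). The summed level of these 4 genes was 30.6 to 34.9 RPKM on chow with control antibody, and 26.1 to 30.9, 27.6 to 29.5 and 24.1 to 31.7 in the other groups (GCGR antibody on chow, then control and GCGR antibody on HFD).

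Prorsd1, a gene of the tRNA editing list related to the prolyl-tRNA synthetase editing domain, was higher on HFD under control antibody, from 4.71 to 5.99 RPKM (0.30, limma adjusted p = 0.00623). The ratio of the summed cytosolic to the summed mitochondrial synthetase level without Lars2 ran from 4.01 in library 19 to 4.78 over the 23 libraries.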
